A study of Mus musculus with 10 samples.

Results

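The genes described are 10 that encode proteins of cardiac calcium handling: Ryr2, Casq2, Trdn, Jph2, Hrc, Sri, S100a1, Camk2d, Pln and Slc8a1. They were taken by symbol from a table of 23303 entries for the left ventricle, and all 10 were found and had a mean of at least 1 FPKM (fragment numbers corrected for transcript length and sequencing depth), the minimum for testing. The series concerns uremic cardiomyopathy, a disease of the heart in kidney failure. It compared 5 male 129X1/SvJ mice whose surgery is labelled CKD (chronic kidney disease) with 5 male 129X1/SvJ mice labelled Sham, and each library is 1 mouse, numbered here within its group only to name it. The age of the mice, the operation behind the CKD label and any batch are not given in the sources used here.

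In each heartbeat a small calcium entry through the surface membrane opens ryanodine receptors, and the sarcoplasmic reticulum (SR), the calcium store of the muscle cell, releases the calcium that drives contraction. The calcium is then pumped back into the SR by the pump encoded by Atp2a2, which phospholamban restrains, or expelled from the cell by the sodium-calcium exchanger. Changes in the release channel, the pump, phospholamban and the exchanger have long been studied in hypertrophied and failing hearts.

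No member passed the test for a difference between CKD and Sham (limma, Benjamini-Hochberg adjusted p under 0.05 over 11651 tested genes). Over all tested genes 3.17% were called higher and 2.12% lower. At an unadjusted limma p under 0.05, 1 member was higher (Sri) and 2 were lower (Slc8a1 and Ryr2), where 10.5% of all tested genes were higher and 9.03% lower. The median log2 difference of the 10 members was -0.09, against -0.0035 over all tested genes, with 3 members above 0 and 7 below. The widest of the members' 95% intervals ran from -0.43 to 0.12 (Hrc) and the narrowest, that of Sri, from 0.04 to 0.25, on the log2(FPKM + 0.5) scale. Atp2a2 was listed at 0 in all 10 libraries, so neither its level nor the ratio of phospholamban to the pump can be given.

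CKD 1 and Sham 1 stood apart before any gene was compared. At the lowest values, FPKM of at most 0.2, between 26.9% and 30.8% of genes stood in 1 common ratio (within 0.001 on the natural log scale) between Sham 2 and each of CKD 2, CKD 3, CKD 4, CKD 5, Sham 3, Sham 4 and Sham 5. These ratios ranged from 0.907 to 1.15 and give the depth of those libraries relative to Sham 2. For CKD 1 and Sham 1 the share was 0.436% and 0.546%, so no single factor relates their low values to those of the other 8 libraries, and their relative depth is not given. Between CKD 1 and Sham 1 themselves the share was 2.55%. Their FPKM may thus stand on a scale that differs from gene to gene from that of the others, which would also touch ratios between genes within these 2 libraries. How they were quantified is not stated in the sources used here. The share of summed FPKM held by the 10 top genes was 14.8% for CKD 1 and 15.3% for Sham 1, and 17.6% to 18.2% for the rest. Results that rest on these libraries are given with and without them.

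The members spanned a wide range of levels, and FPKM, being scaled to transcript length, allows them to be set in order. In Sham ventricles Pln was the most abundant at 4594 ± 517 FPKM (SD, n = 5 for this and all group values), between the 10th and 14th most abundant entry of each library. S100a1 followed at 1364 ± 109 FPKM, then Hrc at 591 ± 83.9 and Casq2 at 465 ± 27.1. Ryr2 stood at 176 ± 18.3 and Jph2 at 164 ± 7.61 FPKM. Trdn at 85.8 ± 5.89, Camk2d at 65.4 ± 7.78 and Slc8a1 at 45.5 ± 6.59 FPKM came next, and Sri was the lowest at 18.2 ± 0.289 FPKM. Over all 10 libraries, 3 pairs of neighbours in this order overlapped. These were Hrc and Casq2 (Hrc higher in 8 of 10 mice), Ryr2 and Jph2 (Ryr2 higher in 6 of 10), and Trdn and Camk2d (Trdn higher in 8 of 10). For Hrc and Casq2 and for Trdn and Camk2d, the exceptions were CKD 1 and Sham 1. Without these libraries the lowest Hrc value was 551 FPKM and the highest Casq2 value 525. The lowest Trdn value was then 75.8 FPKM and the highest Camk2d value 65.3. Camk2d exceeded Slc8a1 in 10 of 10 mice, although the 2 genes' ranges overlapped in Sham through the Slc8a1 value of Sham 1. The same order of group means held in CKD except that Jph2 (158 ± 8.03 FPKM) lay above Ryr2 (150.1 ± 25.1 FPKM), a difference within the spread between mice. This exception rested on CKD 1. Without it the CKD means were 157.8 FPKM for Ryr2 and 157.6 for Jph2.

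**Figure D1:**
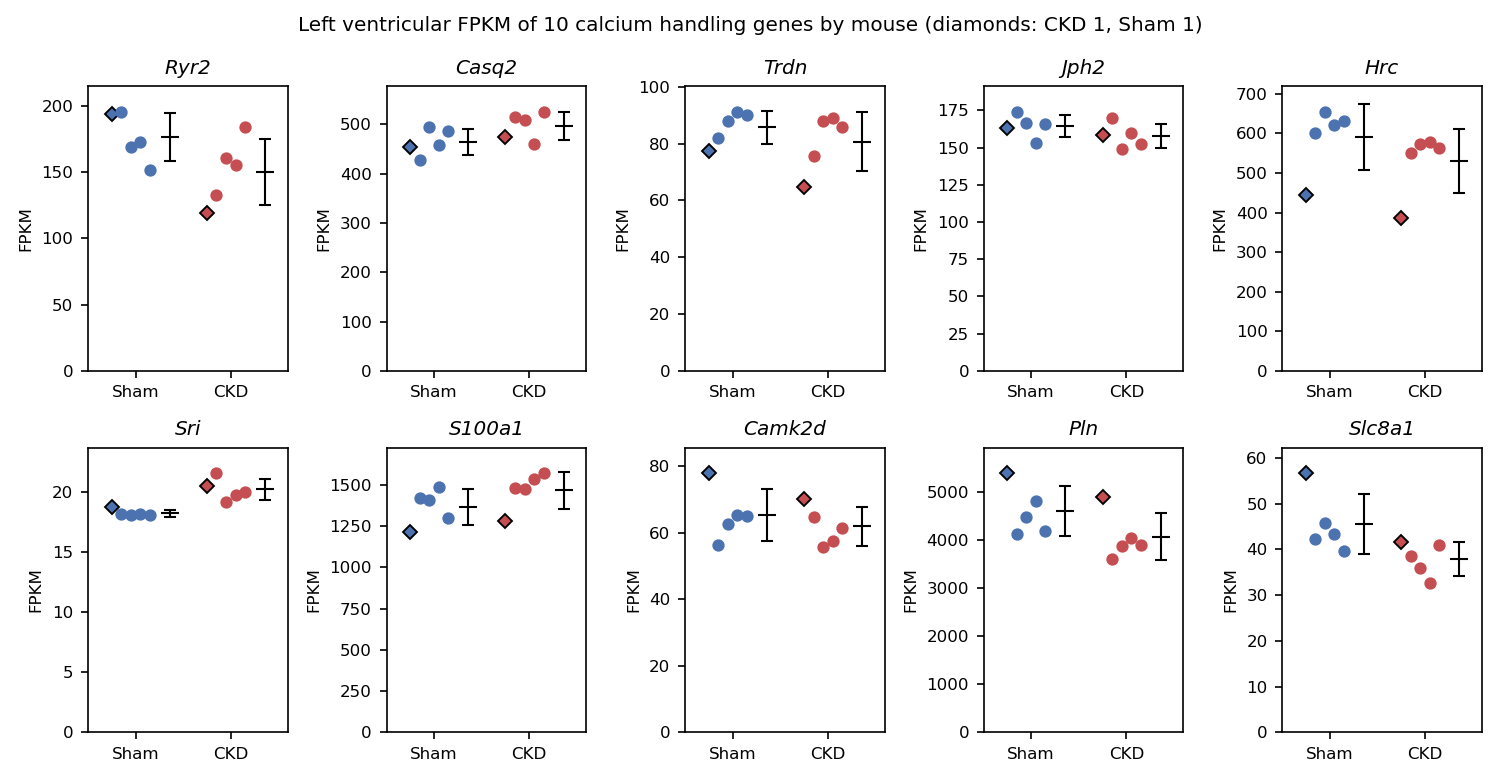
FPKM of each of the 10 genes (vertical axes, each from 0) in every Sham (blue) and CKD (red) mouse, with the group mean and SD beside the points; diamonds mark CKD 1 and Sham 1. Sri is the only gene whose 5 CKD values (19.2 to 21.5 FPKM) all lie on 1 side of its 5 Sham values (18.0 to 18.7 FPKM).

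Ryr2 encodes the cardiac ryanodine receptor, the channel through which the SR releases calcium (chromosome 13, 11553099 to 12106945 in GRCm38). Its FPKM in CKD 1 to CKD 5 were 119, 132, 160.2, 155 and 184. In Sham 1 to Sham 5 they were 193, 195, 169, 173 and 151. CKD 1 and CKD 2 lay below every Sham mouse, CKD 5 lay above 3 of the Sham mice, and the groups overlapped. The log2 difference was -0.24 (95% interval -0.48 to -0.00064, limma adjusted p = 0.255, exact two-sided permutation p = 0.103). It was -0.13 without CKD 1 and Sham 1 (adjusted p = 0.540), and the gap between these 2 libraries alone was -0.70.

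Ryr2 and Slc8a1 have the longest transcripts of the 10, with 16814 and 18464 bases in the longest GENCODE model, and long transcripts as a class were lower in CKD. Over the 256 other tested genes with transcripts of 10000 bases or more, a limit chosen after the data were seen, the median log2 difference was -0.09, against 0.01 for the 2187 genes with the shortest transcripts (1947 bases or fewer). Relative to each gene's mean over all libraries, the median of these long genes was -0.05, -0.12, -0.04, -0.06 and 0.05 in CKD 1 to CKD 5. It was 0.13, 0.09, 0.06, 0.07 and -0.12 in Sham 1 to Sham 5. CKD 5 was thus the highest CKD library and Sham 5 the lowest Sham library both for the long genes and for Ryr2. The other extremes differed. The lowest CKD library was CKD 2 for the long genes and CKD 1 for Ryr2, and the highest Sham library Sham 1 and Sham 2. The part of transcript length in the Ryr2 difference was not tested. With each library's trend on transcript length removed, the log2 difference of Ryr2 was -0.12 (SE 0.07, adjusted p = 0.397) and that of Slc8a1 -0.13 (SE 0.09, adjusted p = 0.506). Those of the other 8 members, none with a transcript over 5524 bases, moved by less than 1.5 times.

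**Figure D2:**
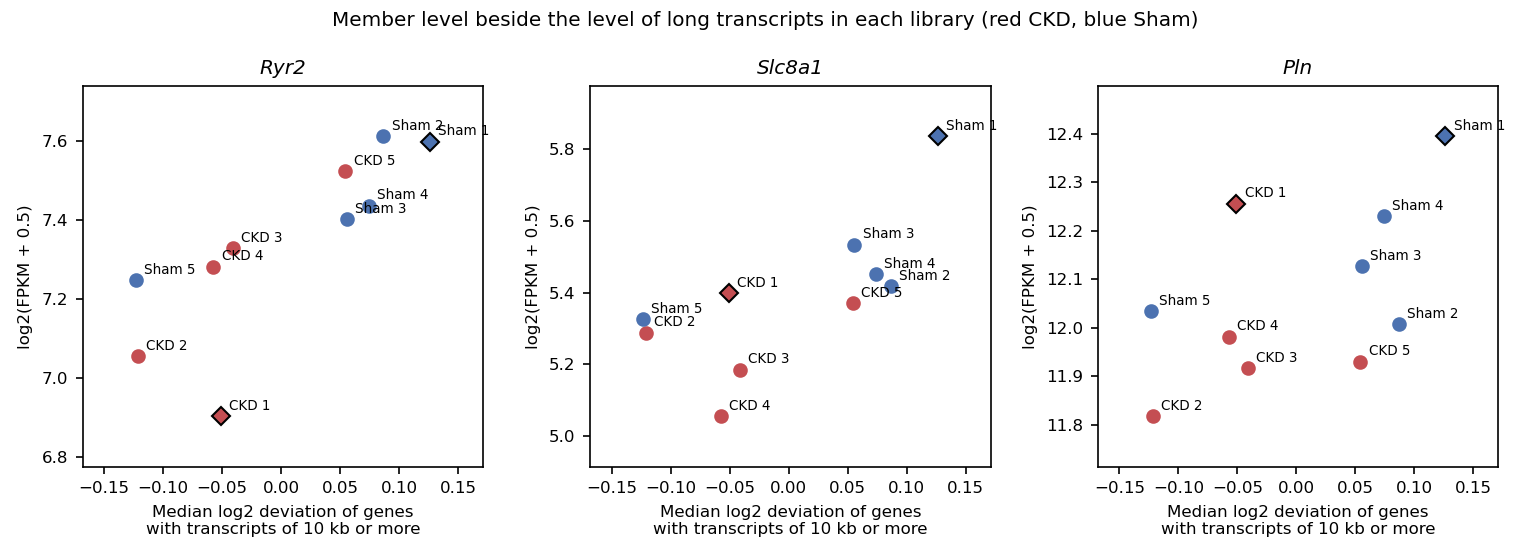
Level of Ryr2, Slc8a1 and Pln in each library, as log2(FPKM + 0.5) on the vertical axes, against the median log2 deviation of 256 genes with transcripts of 10000 bases or more (horizontal axes); red is CKD, blue is Sham and diamonds are CKD 1 and Sham 1. CKD 5, at 0.05 on the horizontal axis, has the highest Ryr2 level of the CKD libraries, and Sham 5, at -0.12, the lowest of the Sham libraries. The CKD library furthest left is CKD 2, while CKD 1 has the lowest Ryr2 level. The Sham library furthest right is Sham 1, while Sham 2 has the highest Ryr2 level.

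Among the genes for proteins that sit with the ryanodine receptor on the store side, CKD minus Sham was positive for Casq2. It was negative for Trdn and Hrc. The 95% interval of each held values of both signs, and differences between these genes were not tested. Casq2 encodes cardiac calsequestrin, the calcium-binding protein that buffers the store (chromosome 3, 102086415 to 102146514). Its FPKM were 474, 514, 509, 460.3 and 525 in CKD 1 to CKD 5, and 454, 428, 495, 459 and 487 in Sham 1 to Sham 5. In Casq2, 3 of the CKD values exceeded every Sham value, and the remaining CKD values fell inside the Sham range. CKD exceeded Sham by 0.10 on the log2 scale (95% interval -0.02 to 0.21, adjusted p = 0.358).

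Trdn encodes triadin, which links calsequestrin to the receptor (chromosome 10, 33083483 to 33476709). It measured 64.7, 75.8, 88.0, 89.1 and 85.8 FPKM in CKD and 77.4, 81.9, 88.1, 91.2 and 90.2 in Sham, both in order of mouse number. The lowest value of each group belonged to CKD 1 and Sham 1. The log2 difference, -0.09 with an adjusted p = 0.619, was -0.02 without CKD 1 alone and -0.05 without CKD 1 and Sham 1. An antisense gene listed as D830005E20Rik, at 6.15 to 16.0 FPKM, overlaps Trdn, and the sources used here do not say whether strand was used in counting.

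Hrc encodes the histidine-rich calcium-binding protein of the SR lumen (chromosome 7, 45335269 to 45338973). In CKD 1 it measured 386 FPKM, and in CKD 2 to CKD 5 551, 574, 579 and 563. In Sham 1 it measured 445 FPKM, and in Sham 2 to Sham 5 601, 655, 621 and 632. The 2 libraries that stood apart were thus far below their groups, and among the other 8 every CKD value lay below every Sham value. With all libraries it differed by -0.16 on the log2 scale (95% interval -0.43 to 0.12, adjusted p = 0.556). Without CKD 1 and Sham 1 it was -0.15 (SE 0.04, adjusted p = 0.0516). Leaving out CKD 1 alone gave -0.05 and leaving out Sham 1 alone -0.26.

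Jph2 encodes junctophilin, which holds the SR close to the surface membrane so that the entry and release channels face each other (chromosome 2, 163336242 to 163398049). It was among the least variable members, with a coefficient of variation of 5.09% in CKD and 4.63% in Sham. CKD values ran from 149 to 169.7 FPKM and Sham values from 153 to 174. On the log2 scale CKD minus Sham was -0.06 (95% interval -0.17 to 0.05, adjusted p = 0.563), and the bounds of the interval correspond to 0.890-fold and 1.03-fold. It was -0.04 without CKD 3 and likewise without Sham 2. CKD 1 and Sham 1 lay inside the range of their groups for this gene.

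Sri, S100a1 and Camk2d encode regulators of release. Sri encodes sorcin, a small calcium-binding protein that acts on the ryanodine receptor (chromosome 5, 8046078 to 8069314). Its FPKM were 20.5, 21.5, 19.2, 19.8 and 20.0 in CKD 1 to CKD 5 and 18.7, 18.1, 18.1, 18.1 and 18.0 in Sham 1 to Sham 5. The groups did not overlap, which held for 4.1% of all tested genes in this direction and 3.18% in the other. The log2 difference was 0.14 (95% interval 0.04 to 0.25), from 18.2 ± 0.289 FPKM in Sham to 20.2 ± 0.882 in CKD, with an exact two-sided permutation p = 0.00794, the smallest that 5 mice against 5 can give. Adjusted over all tested genes by limma it did not pass (adjusted p = 0.112), and it was 0.15 without CKD 1 and Sham 1 (adjusted p = 0.128). In each of the alternatives tried the difference lay between 0.12 and 0.16.

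S100a1 encodes a calcium sensor of the S100 family that binds the ryanodine receptor and the SR pump (chromosome 3, 90511034 to 90514330). It was at 1278, 1477, 1471, 1535 and 1568 FPKM in CKD and 1211, 1422, 1408, 1483 and 1297 in Sham, in order of mouse number. The lowest value of each group again belonged to CKD 1 and Sham 1, and the groups overlapped. The log2 difference was 0.10 (95% interval -0.04 to 0.25, adjusted p = 0.443). It was 0.06 without Sham 1 alone and 0.11 without CKD 1 and Sham 1.

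Camk2d encodes the main cardiac subunit of the calcium/calmodulin-dependent kinase CaMKII, which phosphorylates the ryanodine receptor and phospholamban (chromosome 3, 126595487 to 126846326). CKD values were 70.1, 64.7, 55.5, 57.5 and 61.4 FPKM, and Sham values 77.7, 56.4, 62.5, 65.3 and 64.9, in order of mouse number. Here CKD 1 and Sham 1 were the highest of their groups. Camk2d differed by -0.08 on the log2 scale (95% interval -0.26 to 0.11, adjusted p = 0.698). Leaving out a single library gave values from -0.13 (without Sham 2) and -0.12 (without CKD 1) to -0.04 (without CKD 3) and -0.01 (without Sham 1). With CKD 1 and Sham 1 both left out, the value was -0.06. The table gives 1 value per gene, so splice forms of CaMKII, which go to different parts of the cell, are not resolved.

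Pln encodes phospholamban, the small membrane protein that restrains the SR calcium pump (chromosome 10, 53337686 to 53345999). Its FPKM were 4889.7 in CKD 1 and 3610.3, 3865, 4044 and 3903 in CKD 2 to CKD 5. They were 5382 in Sham 1 and 4117, 4471, 4804 and 4194 in Sham 2 to Sham 5. CKD 1 and Sham 1 were the highest of their groups, and among the other 8 libraries every CKD value lay below every Sham value. With all libraries CKD minus Sham was -0.18 on the log2 scale (95% interval -0.37 to 0.02, adjusted p = 0.299). Without CKD 1 and Sham 1 it was -0.19 (SE 0.05, adjusted p = 0.0840). Quantile normalization gave -0.11. Cep85l, at 3.73 to 7.80 FPKM, overlaps Pln on the opposite strand.

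Slc8a1 encodes the cardiac sodium-calcium exchanger, which expels calcium across the surface membrane (chromosome 17, 81373105 to 81738387). It measured 41.7, 38.6, 35.9, 32.8 and 40.9 FPKM in CKD 1 to CKD 5. In Sham 1 to Sham 5 it measured 56.6, 42.3, 45.85, 43.3 and 39.6. CKD values lay below 4 of the 5 Sham values, and CKD 1, CKD 5 and Sham 5 set the overlap. The log2 difference was -0.25 (95% interval -0.46 to -0.04) with an exact two-sided permutation p = 0.0317, and it did not pass in limma (adjusted p = 0.163). Without CKD 1 and Sham 1 it was -0.21 (adjusted p = 0.149). For the members other than Slc8a1 and Sri, the exact permutation p ran from 0.0952 (Casq2) to 0.437 (Camk2d).

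**Figure D3:**
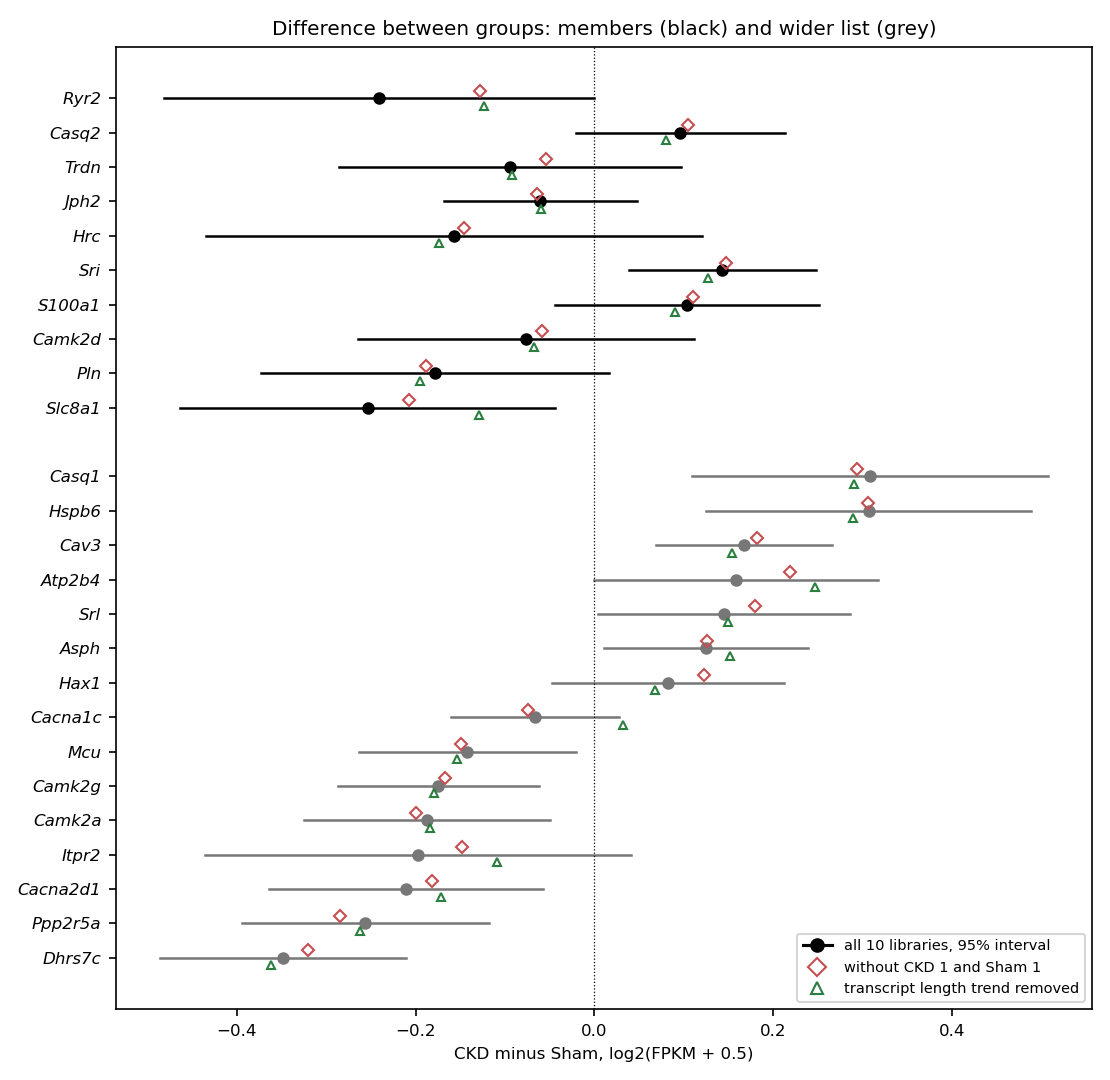
CKD minus Sham on the log2(FPKM + 0.5) scale (horizontal axis) for the 10 members (black) and the tested genes named from the wider calcium handling list (grey), with 95% intervals as lines. Open diamonds leave out CKD 1 and Sham 1 and open triangles have the trend on transcript length removed; for Ryr2 these move the difference from -0.24 to -0.13 and -0.12.

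The members divided by how they stood in the 2 libraries that lay apart. Pln, Slc8a1 and Camk2d had their highest value of each group in CKD 1 and Sham 1, whereas Hrc, Trdn and S100a1 had their lowest there. Sri was highest in Sham 1 and second in CKD 1. Ryr2 was the lowest CKD value in CKD 1 and the second highest Sham value in Sham 1. Relative to its own group mean, Hrc was at -0.44 (log2) in CKD 1 and -0.40 in Sham 1, and Pln at 0.28 and 0.24. The sign of the difference between CKD 1 and Sham 1 matched that between the other 8 libraries for 10 of 10 members, against 66.2% of all tested genes.

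A fit with all 10 libraries and a term for CKD 1 and Sham 1, chosen after the data were seen, called 3 members lower in CKD and none higher. These were Hrc (log2 -0.16, SE 0.03, adjusted p = 0.0142), Pln (-0.18, SE 0.05, adjusted p = 0.0421) and Slc8a1 (-0.25, SE 0.07, adjusted p = 0.0451). The same fit called 4.11% of all tested genes lower and 4.92% higher. With CKD 1 and Sham 1 left out instead, limma called 0 of the 10 members (2.66% of all genes higher and 2.13% lower), with 2 higher and 3 lower at an unadjusted p under 0.05, where 10.5% and 9.74% of all tested genes were. Every CKD value lay below every Sham value in those 8 libraries for 2 members, Pln and Hrc, and for 6.47% of all tested genes. The opposite held for 1 member, Sri, and for 6.61% of all tested genes. Hence the call of Hrc, Pln and Slc8a1 rests on the fit with the added term. That term gives CKD 1 and Sham 1 the same shift for a gene, and whether they share one was not tested.

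**Figure D4:**
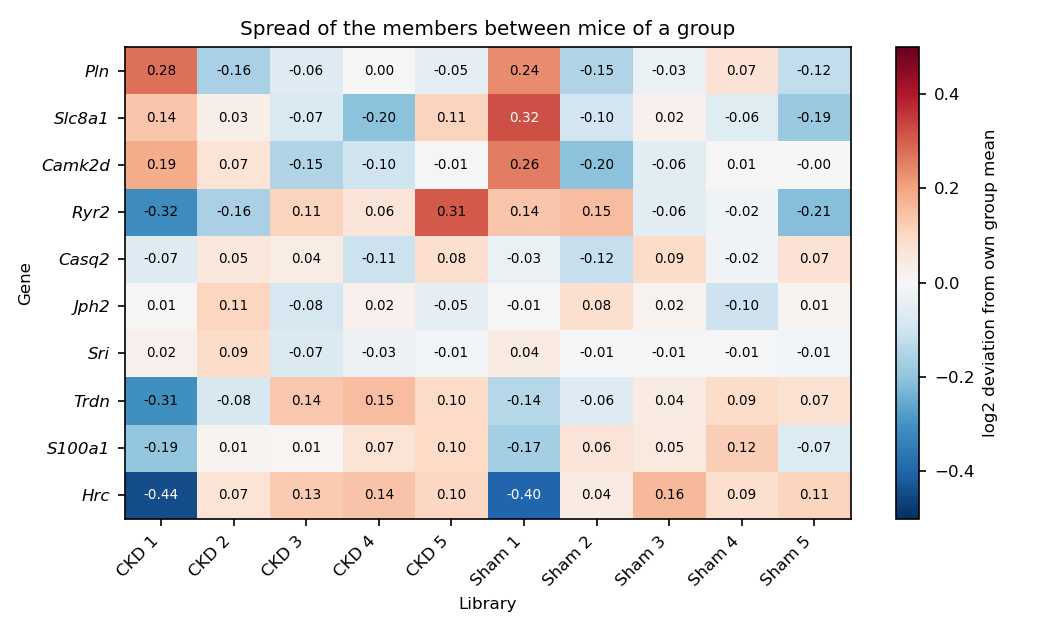
Log2 deviation of each member (rows) in each library (columns) from the mean of that library's own group, from blue (below) to red (above), with the value written in each cell. Hrc stands at -0.44 in CKD 1 and -0.40 in Sham 1, and Pln at 0.28 and 0.24, while Jph2 and Sri vary little in these 2 libraries.

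Ratios within a library do not depend on a single scaling factor of that library, although those of CKD 1 and Sham 1 carry the doubt about their scale. The ratios were chosen with earlier results of these data known and are given without a test. Casq2 to Ryr2, calsequestrin transcript per release channel transcript, was 3.98, 3.88, 3.18, 2.97 and 2.86 in CKD 1 to CKD 5. It was 2.35, 2.19, 2.94, 2.66 and 3.22 in Sham 1 to Sham 5. CKD 1 and CKD 2 exceeded every Sham mouse and the others lay inside the Sham range. The ratio carries the length difference between the 2 transcripts described above. Slc8a1 to Ryr2, between the 2 longest transcripts, was 0.260 ± 0.0594 in CKD and 0.259 ± 0.0283 in Sham. The likeness of these means leaned on CKD 1, at 0.350 against 0.211 to 0.291 in CKD 2 to CKD 5. Sham 1 was at 0.293 and Sham 2 to Sham 5 at 0.216 to 0.272. The groups overlapped with all libraries and without CKD 1 and Sham 1. Hrc to Casq2, between luminal proteins with transcripts of like length, was 0.814 for CKD 1 and 1.07 to 1.26 for CKD 2 to CKD 5. Sham 1 had 0.979 and the other Sham mice 1.30 to 1.41. Every CKD value of this ratio lay below every Sham value once CKD 1 and Sham 1 were set aside, and the groups overlapped with them. How many other gene ratios would separate in this way was not examined. Jph2 to Ryr2, Trdn to Ryr2, Trdn to Casq2, Pln to Ryr2 and S100a1 to Camk2d overlapped between groups with all libraries and without these 2.

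The genes whose levels followed the members most closely between mice differed from gene to gene. With each group centred on its own mean, over all 10 libraries, Ryr2 was closest to Slk, a protein kinase (Pearson r = 0.97), Dmd, the membrane-linked cytoskeletal protein dystrophin (0.96), and Irf5, an interferon regulatory factor (0.93). The same genes had r = 0.96, 0.97 and 0.87 over the 8 libraries without CKD 1 and Sham 1. Pln was closest to Ube2b, Cacul1 and Scrn3 (0.98, 0.98 and 0.97), and Slc8a1 to Slc31a1, Rpp14 and Fem1b (0.98, 0.97 and 0.97). Over the same 8 libraries r was 0.91, 0.96 and 0.97 for Pln and 0.94, 0.92 and 0.92 for Slc8a1. All these genes were picked as the highest of 11651. The libraries share their depth and the standing of CKD 1 and Sham 1, so the correlations describe likeness only.

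In a wider list of 68 calcium handling genes, 66 were in the table and 52 were tested, of which 2 fell in CKD and none rose (limma, adjusted p under 0.05; 5 were higher and 9 lower at an unadjusted p under 0.05). Of all tested genes, 3.17% were called higher and 2.12% lower with adjustment, and 10.5% and 9.03% without it. The median log2 difference of the 52 genes was -0.00084. Every CKD value lay above every Sham value for 1 of the 52 (Cav3) and below for 3 (Dhrs7c, Ppp2r5a and Camk2g). Over all tested genes these shares were 4.1% and 3.18%. The 2 genes called lower were Dhrs7c and Ppp2r5a. Dhrs7c encodes an SR-resident member of the short-chain dehydrogenase family found in striated muscle. It measured 153, 161, 170.3, 197 and 169.5 FPKM in CKD 1 to CKD 5, all below the 209.9, 226, 222, 212 and 211 of Sham 1 to Sham 5. Its log2 difference was -0.35 (SE 0.06, adjusted p = 0.00907), and it passed in every alternative tried (highest adjusted p = 0.0300). Ppp2r5a encodes a regulatory subunit of the phosphatase PP2A. Its level of 44.0 ± 2.90 FPKM in CKD was below the 52.7 ± 3.90 of Sham in every mouse (log2 -0.26, SE 0.06, adjusted p = 0.0385). This call did not hold when CKD 1, 3, 4 or 5 or Sham 2, 3 or 4 was left out singly, with adjusted p up to 0.0933.

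Around the SR pump, Hspb6, a small heat shock protein that acts on phospholamban dephosphorylation, averaged 1037 ± 114 FPKM in CKD against 837 ± 79.4 for Sham (log2 0.31, adjusted p = 0.0555). It passed without CKD 1 and Sham 1 (adjusted p = 0.0423) and with the term for them (0.0132). Leaving out CKD 5 alone (0.0254) or Sham 1 alone (0.0350) also gave a call. Hspb6 did not pass when CKD 1, 2, 3 or 4 or Sham 2, 3 or 4 was left out singly. Adjusted p was then up to 0.127 (without CKD 2), and with quantile normalization it was 0.0688. Srl, the luminal glycoprotein sarcalumenin, was at 329 ± 29.2 and 296 ± 15.4 FPKM (log2 0.15, adjusted p = 0.240). With 1 library left out, the adjusted p of Srl ran from 0.0483 (without CKD 1) to 0.418. Hax1, a phospholamban-binding protein, differed by 0.08 (adjusted p = 0.495) and, without CKD 1, by 0.13 (adjusted p = 0.158). Sln, which encodes the atrial pump regulator sarcolipin, reached at most 0.913 FPKM in CKD and 1.05 in Sham, and Atp2a1, the skeletal muscle pump, was under 1 FPKM in 9 of 10 libraries. Of the 4 tested genes of this group 0 passed.

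Among partners of the release channel, 0 of 9 passed. Asph, whose gene also gives the SR anchor junctin, averaged 195 ± 10.7 FPKM in CKD against 179 ± 9.27 for Sham (log2 0.13, adjusted p = 0.209). Fkbp1b, which encodes the channel-stabilising calstabin, was at 0.333 to 1.36 FPKM and below the minimum for testing. Itpr2, an inositol trisphosphate receptor, differed by -0.20 (adjusted p = 0.354). Its longest transcript has 11679 bases, and with the length trend removed the difference was -0.11.

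Of the 10 tested store and dyad proteins, Dhrs7c was the only call. Casq1, the skeletal calsequestrin, averaged 24.5 ± 2.91 FPKM in CKD against 19.7 ± 2.16 for Sham (log2 0.31, adjusted p = 0.0757). With 1 library left out, its adjusted p ran from 0.0358 (without Sham 5) to 0.160. Cav3, the muscle caveolin, was at 84.1 ± 3.37 and 74.8 ± 2.58 FPKM (log2 0.17, adjusted p = 0.0533). Every CKD value lay above every Sham value, which held for 4.1% of all tested genes. Among 17 kinases, phosphatases, anchors and phosphodiesterases, 13 differences were below 0, as were 5957 of all 11651 tested genes. The median log2 difference of the 17 was -0.04, and Ppp2r5a was the only call. Camk2g and Camk2a, other CaMKII subunits, differed by -0.17 (adjusted p = 0.0755) and -0.19 (adjusted p = 0.115), and Camk2g passed with the term for CKD 1 and Sham 1 (adjusted p = 0.0464). Of 12 surface and mitochondrial transport genes 0 passed. The smallest p there belonged to Cacna2d1, an auxiliary calcium channel subunit (log2 -0.21, adjusted p = 0.111), then to Mcu, the mitochondrial uniporter pore (-0.14, adjusted p = 0.182), and Atp2b4, a plasma membrane calcium pump (0.16, adjusted p = 0.257, and 0.25 with the length trend removed). Cacna1c, the pore of the cardiac L-type channel, was at 62.8 ± 1.53 and 65.8 ± 2.43 FPKM (log2 -0.07, adjusted p = 0.437), and at 0.03 with the length trend removed.

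Markers of the cells in the tissue were read beside these values. The 12 cardiomyocyte markers summed to between 72840 and 91199 FPKM in CKD and between 75791 and 91673 in Sham, and 1 of them passed, higher in CKD. Their mean log2 deviation from Sham was lowest in CKD 1 (-0.20; other CKD mice -0.01 to 0.09) and in Sham 1 (-0.15; other Sham mice -0.03 to 0.12). Myh6, the main myosin heavy chain of the mouse ventricle, was listed at 0 in all 10 libraries, as was Atp2a2. Fibroblast markers (6 of 10 higher) summed to 776 to 957 FPKM in CKD and 640.1 to 728 in Sham, and macrophage markers (5 of 9 tested higher) to 381 to 552 and 270.0 to 327. None of the 10 endothelial and 10 smooth muscle and pericyte markers passed. The atrial list summed to 2844 to 4118 FPKM in CKD and 849 to 1830 in Sham, with 1 of 5 tested genes called higher. The median log2 difference of this list was 0.03. Its mean log2 deviation from Sham overlapped between groups (-0.20 to 0.20 in CKD, -0.17 to 0.18 in Sham). Of its markers, Bmp10 was at 0 in all libraries and Sln below 1 FPKM on average. In whole ventricle, fewer muscle cells and less RNA per muscle cell cannot be told apart, and the part of the cell mixture in the members' differences was not tested.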

How the data were processed

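Left ventricular RNA of 5 CKD and 5 Sham mice was sequenced as single reads from TruSeq mRNA libraries, per the labels' protocols. The deposited values are FPKM, 1 per gene and library, and STAR 2.4.0f1, Cufflinks 2.1.1 and Cuffdiff 2.1.1 with the builds mm10 and hg19 are named, with no role, per the submitters' processing notes. FPKM is not a count, so the reads behind a value are unknown. Columns were matched to mice by title and groups taken from the surgery label.

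Values were analysed as log2(FPKM + 0.5), and differences are on that scale. Genes with a mean of at least 1 FPKM (11651) were fitted with limma 3.58.1 in R 4.3.3 (two-sided moderated test whose prior variance follows the mean level, Benjamini-Hochberg over all tested genes, threshold 0.05). The fit was tested on simulated data. Single genes also had an exact permutation test over the 10 mice. No batch or pairing is labelled. The limma p-values rest on the spread between these libraries, CKD 1 and Sham 1 included, and on the prior variance.

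Transcript lengths are the longest GENCODE M21 model, found for 93.9% of tested genes; their trend was removed per library by a lowess fit (span 0.3). Positions are from RefSeq on GRCm38, the assembly that mm10 denotes. The members and lists were chosen with earlier results of these data known. Named genes are all 10 members and, from the wider list, those that passed, the 3 with the smallest p in each role group, and Atp2a2, Sln, Fkbp1b, Asph, Atp2a1 and Cacna1c. A gene that this rule names is not reported here. For Ryr2, Pln and Slc8a1 the 3 most correlated genes were also named.

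Alternatives were other pseudocounts, filters, scalings, variance models, weights and thresholds, leaving out libraries, and the length correction. The term for CKD 1 and Sham 1 was added after the data were seen. Mrln and Strit1 were not matched by symbol and were not analysed here.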

Additional observations from a re-analysis of the deposited data

Results flagged for a closer look

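Among 74 groups of 5 values checked (members, their ratios and the named genes of the wider list), 6 held a value far from the other 4 of its group. Chance alone would mark about 1 group in 20. Of the 6, 3 were Sham 1 and 1 was CKD 1. Hrc measured 386 FPKM for CKD 1 (551 to 579 for CKD 2 to CKD 5) and 445 FPKM for Sham 1 (601 to 655 for Sham 2 to Sham 5). The ratio of Hrc to Casq2 was 0.979 in Sham 1 and 1.30 to 1.41 in the others. Sri was at 18.7 FPKM in Sham 1, against 18.0 to 18.1, a gap that stands out because the other 4 values are so close. The ratio of Pln to Ryr2 was 21.1 in Sham 2, against 26.5 to 27.8 in the other Sham mice. Atp2a1 measured 1.5 FPKM for CKD 2 and 0.108 to 0.261 for the remaining CKD mice.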

How the results depend on the processing

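Of 230 values of the 10 members under 23 alternatives, none reversed, 227 stayed without a call and 3 gained one: with a term for CKD 1 and Sham 1, the number of members called lower was 3 (Pln -0.18, Slc8a1 -0.25, Hrc -0.16). Leaving out 1 library at a time called 0 members. In the wider list the number higher was 1 without a filter (Cav3), with median ratio scaling, robust variances and without both CKD 1 and Sham 1 (Hspb6 in these 3), 2 with the term, 3 with array weights and at an adjusted p under 0.1, and 0 to 1 with 1 library left out. The number lower, 2 as reported, was 1 without a variance trend and at an adjusted p under 0.01, 3 without a filter, with the term and at an adjusted p under 0.1, and 1 to 3 with 1 library left out. With the transcript length trend removed, the log2 difference of Cacna1c was 0.032, against -0.07. The cause was not tested. No paired analysis was possible because the labels give no number shared by mice of both groups. Intervals rest on 5 mice per group, and reads per gene are unknown.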

Other observations

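In the wider list 14 genes of the table were below the minimum for testing. Several relatives of the members among them are given as values chosen after they were seen. Ryr3, the ryanodine receptor found in brain and other tissues, lay at 0.132 to 0.179 FPKM in CKD and 0.228 to 0.342 in Sham, with no overlap. Sypl2, the triad protein mitsugumin 29, lay at 0.524 to 0.832 FPKM in CKD and 0.162 to 0.518 in Sham, also with no overlap. Ryr1, the skeletal release channel, was at most 0.118 FPKM in any library, Jph3 and Jph4 at most 0.121 and 0.0966, and the exchangers Slc8a2 and Slc8a3 at most 0.738 and 0.0647. The number of reads behind such values is unknown. The shares of genes without overlap given above cover tested genes only, so none is available at this level.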
